A study of Homo sapiens with 12 samples.

Results

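The SLC25 family of mitochondrial solute carriers was followed in HepG2, an established human liver cancer line of wild-type genotype per the labels, across 4 culture media. Its members were the rows of the deposited count table whose symbol starts with SLC25A, which gave 41 of 10945 rows with a symbol. Of these, 39 were protein-coding carriers and 2 were antisense RNAs, SLC25A21-AS1 and SLC25A25-AS1, which are described apart. RefSeq lists 48 protein-coding symbols of this form, and the other 9 (among them SLC25A47, SLC25A18 and SLC25A27) are not analysed here. The groups were Plasmax, a medium formulated after human plasma, high-glucose DMEM (HGDMEM), low-glucose DMEM (LGDMEM) and EMEM, the medium in which all cells had been kept and seeded, each with 3 libraries after 96 h in the medium. Every medium contained 10% heat-inactivated serum. For every library the labels give a move to the medium 24 h after seeding and 48 h for the refresh of the medium. All cells came from 1 line, so the groups differ by medium alone in the labels. The labels do not say whether the 3 libraries of a medium stem from separate cultures, and the spread that p-values rest on may therefore be technical.

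SLC25 carriers sit in the inner mitochondrial membrane, with a few in other membranes such as that of the peroxisome, and exchange or import metabolites, nucleotides, phosphate, cofactors and ions between the cytosol and the matrix. They are built on a shared repeat fold and are encoded in the nucleus, translated in the cytosol and inserted by the TIM22 complex. In liver cells they feed fatty acid synthesis with citrate, carry the malate-aspartate shuttle and the urea cycle, exchange ATP for ADP, and bring in the iron, phosphate and cofactors that matrix enzymes use.

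Each library held 4131093 to 6015796 deposited counts, of which 11013 to 15960, or 0.242% to 0.288%, fell on the 39 carriers. CPM below stands for counts scaled to a common library size by TMM, and each count is a read from a transcript's 3′ end, so levels are not divided by transcript length. Rows with low values had been taken out before deposit, since the third highest CPM of any row was at least 2.56, so a gene low in all media had no row. All 10 hepatic markers had a row (ALB, AFP, TTR and APOA1 among them), with a sum of 12280 to 13865 CPM in Plasmax, 24359 to 26740 CPM in HGDMEM, 21370 to 23861 CPM in LGDMEM and 22431 to 22966 CPM in EMEM. Of 5 leukocyte markers PTPRC and CD3E had no row, and LYZ, CD68 and CD14 summed to 1966 to 2193 CPM in Plasmax, 2710 to 3159 CPM in HGDMEM, 2122 to 2885 CPM in LGDMEM and 2657 to 3294 CPM in EMEM. Of 6 endothelial and stromal markers only COL1A1 had a row, at 8.03 to 9.51 CPM in Plasmax, 0 to 2.54 CPM in HGDMEM, 0.505 to 8.26 CPM in LGDMEM and 4.09 to 6.10 CPM in EMEM. The part of these markers in the carrier values was not tested. LGDMEM 3 stood apart on the second principal component. Its part in the results was tested only by leaving it out, as given below.

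Carrier levels spanned a wide range. SLC25A6, SLC25A5, SLC25A1 and SLC25A3 together made up 54.8% to 68.7% of the carrier CPM of a library. A mean over 100 CPM was reached by 5 carriers, over 10 CPM by 26, and 4 stayed below 5 CPM. Summed over the 39 carriers, the level was 2466 ± 38.6 CPM in Plasmax, 2647 ± 206 CPM in HGDMEM, 2756 ± 230 CPM in LGDMEM and 2686 ± 24.0 CPM in EMEM (SD, n = 3 each). Without SLC25A1 the sums were 2364 ± 6.71 CPM in Plasmax, 2335 ± 43.8 CPM in HGDMEM, 2473 ± 134 CPM in LGDMEM and 2313 ± 110 CPM in EMEM. The Plasmax sum lay below each EMEM sum with SLC25A1 included, and within the range of the EMEM sums without it.

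Against EMEM, 10 of 39 carriers were called in Plasmax, that is, they passed a Benjamini-Hochberg adjusted p of 0.05, over all genes, in edgeR's quasi-likelihood test. SLC25A1, SLC25A29, SLC25A42, SLC25A10, SLC25A33, SLC25A23 and SLC25A39 fell, while SLC25A3, SLC25A36 and SLC25A21 rose. In bulk libraries less of a transcript per cell and fewer cells that hold it cannot be told apart. Of all genes tested, 22.1% were called in this comparison (10.0% higher and 12.1% lower), so the carriers' share of 25.6% is close to the background. The median log2 fold change of the 39 carriers was −0.05, beside 0.02 over all genes. Against LGDMEM 7 carriers were called, 2 higher and 5 lower, where 21.2% of all genes were called (9.48% higher and 11.7% lower). Against HGDMEM 11 carriers were called, 4 higher and 7 lower, where 26.9% of all genes were called (12.8% higher and 14.1% lower). The medians were −0.18 against LGDMEM and −0.25 against HGDMEM, beside 0.00 and 0.01 over all genes. A test over the 4 media called 9 of 39 carriers, where 22.9% of all genes were called. The 3 comparisons share the Plasmax libraries, so each is given by its own values.

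**Figure D1:**
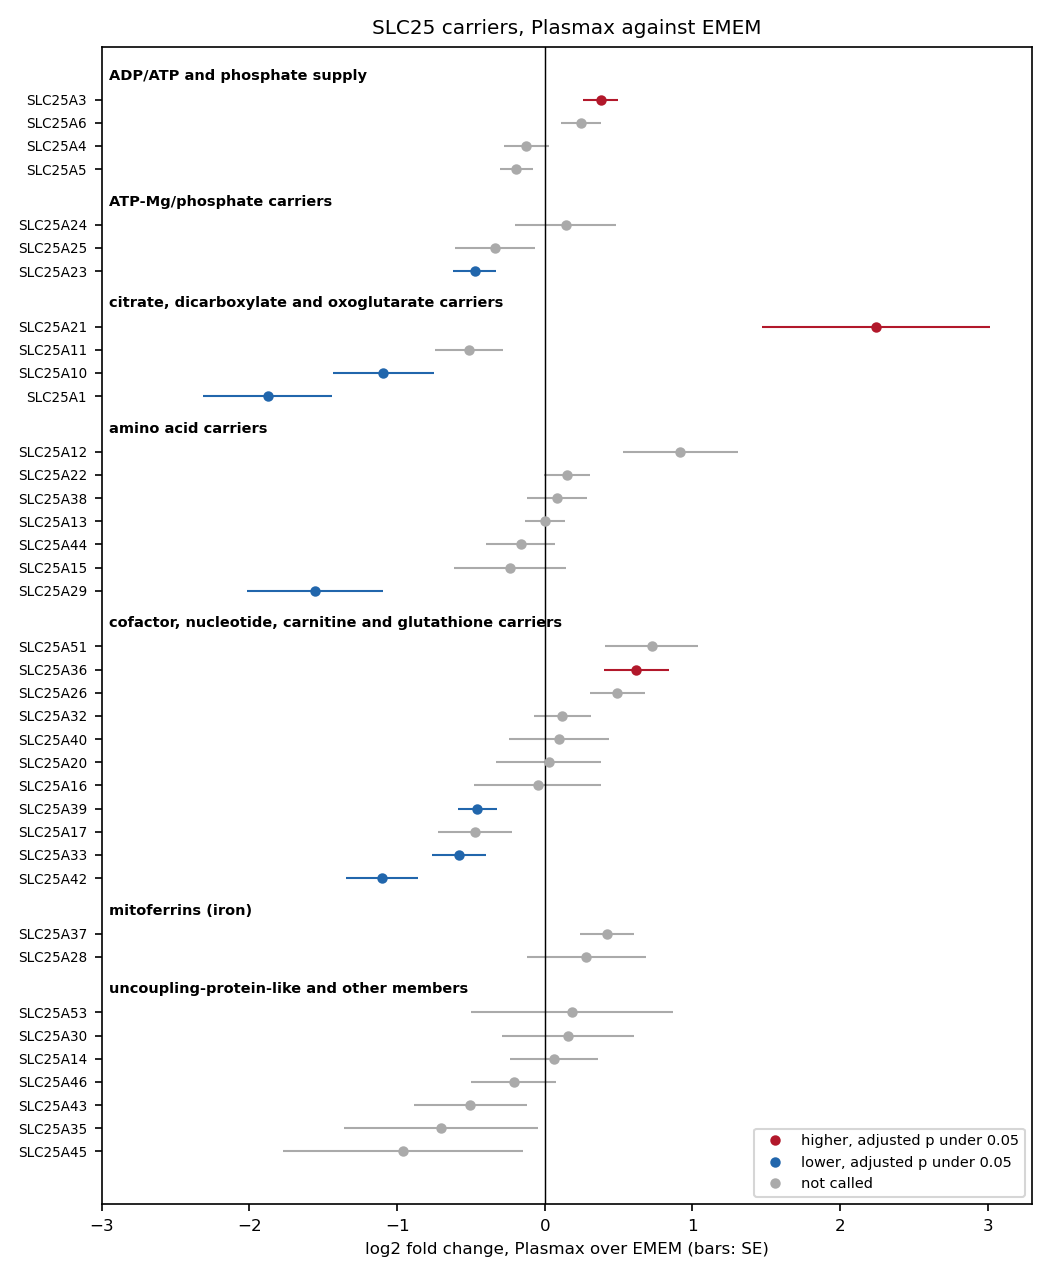
Log2 fold change of SLC25 carriers in Plasmax over EMEM, grouped by what they carry, with bars for the standard error. The 7 carriers called lower reach down to −1.88 (SLC25A1), the 3 called higher reach up to 2.24 (SLC25A21), and carriers that were not called are grey.

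Among LGDMEM against EMEM, HGDMEM against EMEM and HGDMEM against LGDMEM, edgeR called 0 of 39 carriers each, where 0.0731%, 0.164% and 0.0640% of all genes were called. An unadjusted p under 0.05 was reached by 5, 1 and 2 carriers, beside 866, 830 and 860 of all genes. DESeq2 and limma voom also called 0 carriers in each. The median log2 fold changes of the carriers were 0.03 for LGDMEM against EMEM, 0.15 for HGDMEM against EMEM and 0.10 for HGDMEM against LGDMEM. A difference that was not called here is not shown to be absent, since the 3 libraries of a medium could differ widely, as SLC25A1 shows.

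**Figure D2:**
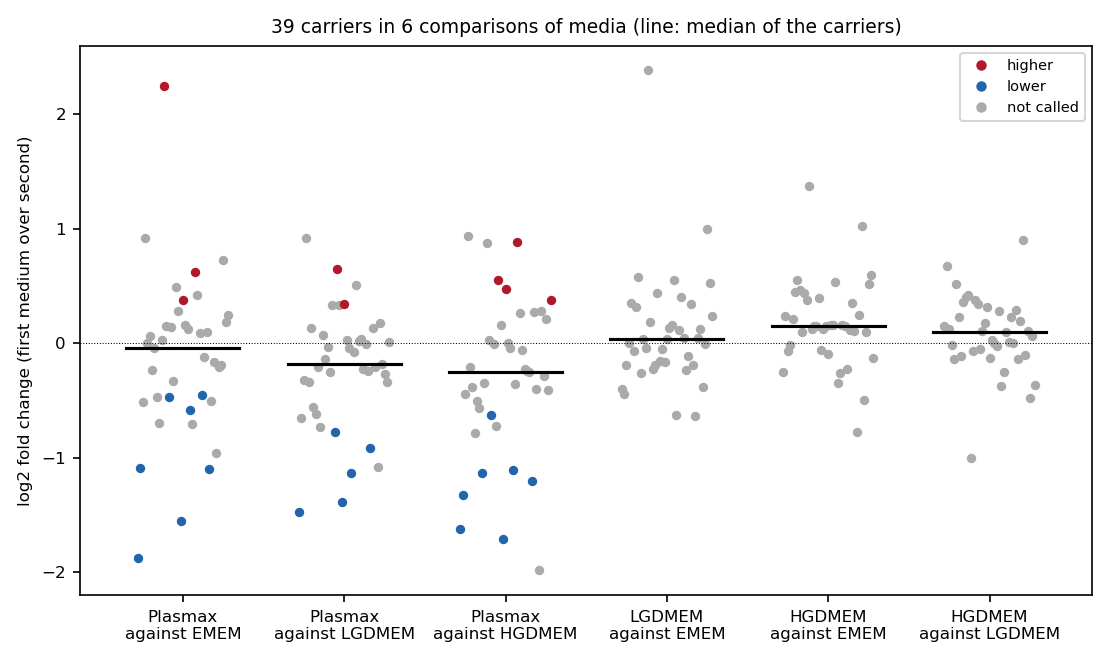
Log2 fold change of each of the 39 carriers (points) in 6 comparisons of media, first medium over second, with the median of the carriers as a line. Called carriers appear in the 3 comparisons with Plasmax and in none of the other 3.

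All 3 comparisons with Plasmax called 5 carriers. SLC25A1, SLC25A42, SLC25A33 and SLC25A29 were lower in each, and SLC25A3 was higher in each, where 14.3% of all genes were called in all 3. At least 1 comparison called 14 carriers, beside 34.0% of all genes, no carrier was called with both signs, and 25 carriers were called in none. The 3 Plasmax libraries lay above the other 9 for SLC25A3 and SLC25A26, beside 10.9% of all genes, and below the other 9 for SLC25A42, SLC25A33 and SLC25A29, beside 11.3% of all genes. Set against EMEM alone, Plasmax did not overlap for 8 carriers higher and 9 lower, beside 2102 and 2207 of 10945 genes. Against LGDMEM these were 2 and 5 carriers, beside 1986 and 1971 genes. Against HGDMEM they were 4 and 13 carriers, beside 2338 and 2323 genes.

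**Figure D3:**
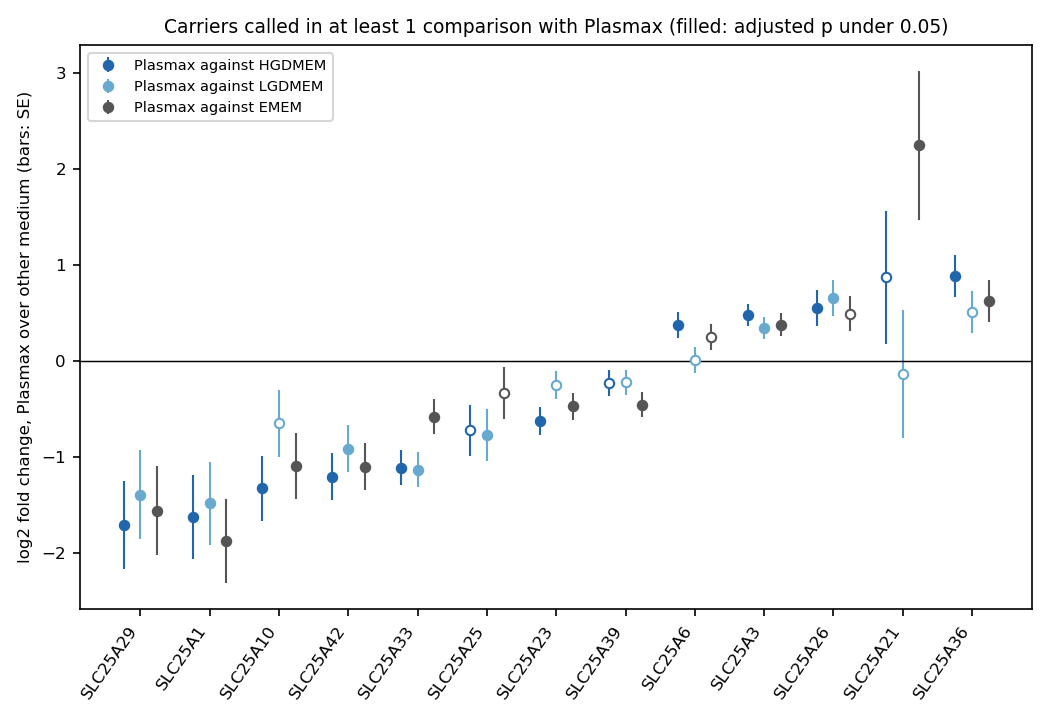
Log2 fold change in Plasmax over HGDMEM, LGDMEM and EMEM, with standard error bars, of 13 of the 14 carriers called in at least 1 of these comparisons, where filled points are called. SLC25A29, SLC25A1, SLC25A42 and SLC25A33 are filled below 0 in all 3, and SLC25A3 is filled above 0 in all 3.

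The promoters of those 5 carriers are shown because they are the members called in all 3 comparisons, which share the Plasmax libraries. How firmly each call held differed between the comparisons, as given below. Each line gives the 250 bases before the transcription start in RefSeq's table for GRCh38.p14, 5′ to 3′ in the gene's direction, a build other than the GRCh37 build named in the submitters' processing notes. The positions are chr22:19178737-19178986, minus strand for SLC25A1, chr19:19063744-19063993, plus strand for SLC25A42, chr1:9539215-9539464, plus strand for SLC25A33, chr14:100306445-100306694, minus strand for SLC25A29 and chr12:98593436-98593685, plus strand for SLC25A3. Capitals mark every match, on either strand, to the E-box (CACGTG), the NRF1 half-site (TGCGCA), the CRE half-site (TGACG) or the ATF4-C/EBP element (TGATGNAA), and matches may overlap.
SLC25A1: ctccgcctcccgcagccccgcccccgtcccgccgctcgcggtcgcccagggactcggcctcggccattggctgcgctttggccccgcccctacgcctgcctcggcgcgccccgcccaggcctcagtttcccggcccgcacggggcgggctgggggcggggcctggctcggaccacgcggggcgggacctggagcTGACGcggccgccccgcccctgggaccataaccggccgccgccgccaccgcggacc
SLC25A42: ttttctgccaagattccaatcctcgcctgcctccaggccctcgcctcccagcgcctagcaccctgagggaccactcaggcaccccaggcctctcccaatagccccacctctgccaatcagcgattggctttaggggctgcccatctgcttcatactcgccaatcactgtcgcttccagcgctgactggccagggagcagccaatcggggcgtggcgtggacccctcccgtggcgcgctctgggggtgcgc
SLC25A33: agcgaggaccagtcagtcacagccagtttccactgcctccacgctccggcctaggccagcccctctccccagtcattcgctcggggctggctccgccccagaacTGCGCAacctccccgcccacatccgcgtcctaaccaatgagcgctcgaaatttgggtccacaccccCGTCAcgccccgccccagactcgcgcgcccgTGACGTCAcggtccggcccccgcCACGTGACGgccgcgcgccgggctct
SLC25A29: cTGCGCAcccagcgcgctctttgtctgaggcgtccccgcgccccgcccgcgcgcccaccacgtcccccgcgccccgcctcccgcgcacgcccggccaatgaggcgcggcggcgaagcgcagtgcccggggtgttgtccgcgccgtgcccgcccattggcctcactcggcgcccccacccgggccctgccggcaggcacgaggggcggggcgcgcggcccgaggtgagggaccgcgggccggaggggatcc
SLC25A3: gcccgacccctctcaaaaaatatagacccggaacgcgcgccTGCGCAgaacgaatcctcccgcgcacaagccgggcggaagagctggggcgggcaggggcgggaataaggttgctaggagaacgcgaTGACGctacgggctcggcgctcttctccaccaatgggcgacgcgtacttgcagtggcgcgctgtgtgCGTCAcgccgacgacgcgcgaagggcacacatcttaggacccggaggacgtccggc
The SLC25A33 window held 4 CRE half-sites, the E-box and the NRF1 half-site, with a pair of its CRE half-sites on opposite strands overlapping each other and another overlapping the E-box. SLC25A3 held 2 CRE half-sites and 1 NRF1 half-site, SLC25A1 held 1 CRE half-site, SLC25A29 held 1 NRF1 half-site and SLC25A42 held none of the 4 motifs. Of the 39 carriers, 33 matched a window in the table. Among these 33, the CRE half-site was in 11, or 33.3%, against 21.7% of the 27305 genes with a window, the E-box in 6, or 18.2%, against 6.49%, the NRF1 half-site in 3, or 9.09%, against 7.05%, and the ATF4-C/EBP element in SLC25A11 alone, or 3.03%, against 3.19%. The GC content was 81.6% for SLC25A1, 81.2% for SLC25A29, 70.4% for SLC25A33, 66.0% for SLC25A3 and 65.2% for SLC25A42, beside a median of 58.0% over all genes of the table. The 27305 genes were matched to the carriers neither for GC content nor for having a row here. Of 13 carriers with a window called in a comparison with Plasmax, 6 held the CRE half-site and 2 the E-box. The NRF1 half-site was in 3 of them and the ATF4-C/EBP element in 0. A match describes these letters and is not a test of binding.

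Among the carriers of citrate, dicarboxylates and oxoglutarate, SLC25A1, the citrate carrier that exports citrate for cytosolic acetyl-CoA and fatty acid synthesis, fell in Plasmax. It had 146, 61.6 and 96.7 CPM in Plasmax, 132, 335 and 471 CPM in HGDMEM, 410, 101 and 338 CPM in LGDMEM and 472, 352 and 293 CPM in EMEM. Every Plasmax library was below every EMEM library, while HGDMEM 1 and LGDMEM 2 lay within the Plasmax range and the other 7 libraries lay at 293 to 472 CPM. The level decreased by 72.8% against EMEM (log2 fold change −1.88, SE 0.44, adjusted p = 0.00460 by edgeR). Against HGDMEM the log2 fold change was −1.63 (SE 0.43, adjusted p = 0.00916) and against LGDMEM −1.48 (SE 0.43, adjusted p = 0.0198), both with overlapping groups. The call against EMEM held when any 1 library was left out. The call against LGDMEM was lost without Plasmax 2, Plasmax 3 or LGDMEM 1 (adjusted p 0.0706 to 0.0965), in DESeq2 (0.0564) and in limma voom (0.0618), and that against HGDMEM without Plasmax 2 or HGDMEM 3 (0.0536 and 0.0639).

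The drop of SLC25A1 in HGDMEM 1 and LGDMEM 2 was looked for in all genes. Other pairs of libraries were not counted, so the number found has no background beside it. In 15 genes both libraries lay at least 1.5-fold below the lowest of the other 7 libraries without Plasmax, and 3 of these had a mean of at least 10 CPM, namely SLC25A1, RPS9 and SNN. RPS9 encodes a protein of the small ribosomal subunit. With both libraries left out of the fit, an alternative chosen after the values were seen, 4 carriers in place of 7 were called against LGDMEM. That fit lost the calls of SLC25A3, SLC25A25, SLC25A26 and SLC25A21-AS1 against LGDMEM, of SLC25A26, SLC25A6 and SLC25A21-AS1 against HGDMEM, and of SLC25A36 and SLC25A21 against EMEM (adjusted p 0.0509 to 0.167).

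SLC25A10, the dicarboxylate carrier that exchanges malate and succinate for phosphate, had 11.5, 9.10 and 10.3 CPM in Plasmax, 25.9, 24.7 and 27.3 CPM in HGDMEM, 24.7, 15.5 and 8.60 CPM in LGDMEM and 28.9, 11.7 and 25.9 CPM in EMEM. HGDMEM libraries lay together above Plasmax, whereas LGDMEM 3 lay below every Plasmax library and EMEM 2 came close to the Plasmax values. It fell against HGDMEM (log2 fold change −1.33, SE 0.34, adjusted p = 0.00740 by edgeR) and against EMEM (−1.09, SE 0.34, adjusted p = 0.0287). The fold change against LGDMEM was −0.65 (adjusted p = 0.203) and was called only without LGDMEM 3 (adjusted p = 0.0449). The call against EMEM was lost without any 1 of the 3 Plasmax libraries, EMEM 1 or EMEM 3 (adjusted p 0.0539 to 0.138) and in limma voom (0.0793).

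SLC25A11, the oxoglutarate-malate carrier of the malate-aspartate shuttle, was not called, with log2 fold changes of −0.52 against EMEM, −0.33 against LGDMEM and −0.45 against HGDMEM. SLC25A21, which carries oxodicarboxylates from lysine and tryptophan breakdown, rested on few reads, 7, 25 and 28 counts in Plasmax and 5, 7 and 0 counts in EMEM. HGDMEM had 16, 11 and 8 counts and LGDMEM 15, 28 and 17, and Plasmax overlapped both. In CPM every EMEM library lay below every other library, but neither DMEM medium was called against EMEM. SLC25A21 rose in Plasmax against EMEM (log2 fold change 2.24, SE 0.77, adjusted p = 0.0439 by edgeR) and had log2 fold changes of 0.87 against HGDMEM and −0.14 against LGDMEM. That call was lost without Plasmax 2, Plasmax 3 or any 1 EMEM library (adjusted p 0.0558 to 0.144), in limma voom (0.0835) and with the replicate number as a block (0.0578).

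Coenzyme A is brought into the matrix by SLC25A42, which fell in Plasmax in all 3 comparisons. It had 25.3, 18.8 and 15.7 CPM in Plasmax, 28.9, 59.8 and 49.3 CPM in HGDMEM, 36.1, 44.0 and 32.4 CPM in LGDMEM and 40.8, 42.9 and 44.6 CPM in EMEM. The 3 Plasmax libraries were below the other 9, with Plasmax 1 near HGDMEM 1. The level decreased by 53.4% against EMEM (log2 fold change −1.10, SE 0.24, adjusted p = 0.00332 by edgeR), decreased by 56.7% against HGDMEM (−1.21, SE 0.24, adjusted p = 0.00121) and decreased by 46.9% against LGDMEM (−0.91, SE 0.24, adjusted p = 0.0121). The calls against EMEM and HGDMEM held without any 1 library. That against LGDMEM was lost without Plasmax 3 or LGDMEM 2 (adjusted p 0.0541 and 0.0646). SLC25A16, which is also linked to coenzyme A, was not called, with log2 fold changes of −0.05 against EMEM, −0.62 against LGDMEM and −0.51 against HGDMEM.

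The pyrimidine nucleotide carriers SLC25A33 and SLC25A36, which supply the matrix with nucleotides for mitochondrial DNA and RNA synthesis, moved in opposite directions. SLC25A33 had 27.2, 33.6 and 27.3 CPM in Plasmax, 69.8, 64.7 and 55.8 CPM in HGDMEM, 75.7, 63.9 and 54.1 CPM in LGDMEM and 42.7, 37.0 and 52.2 CPM in EMEM. All Plasmax libraries lay below the other 9, and every EMEM library lay between the Plasmax libraries and those of either DMEM. SLC25A33 fell against HGDMEM (log2 fold change −1.11, SE 0.18, adjusted p = 1.92e-04 by edgeR), against LGDMEM (−1.14, SE 0.18, adjusted p = 2.40e-04) and against EMEM (−0.58, SE 0.18, adjusted p = 0.0287). The log2 fold changes of 0.53 for HGDMEM against EMEM and 0.55 for LGDMEM against EMEM were not called (adjusted p = 0.389 and 0.362). Those groups did not overlap, which held for 773 genes higher and 868 lower of 10945 in HGDMEM against EMEM. In LGDMEM against EMEM it held for 619 higher and 689 lower. The call against EMEM was lost without Plasmax 1, Plasmax 3, EMEM 1 or EMEM 3 (adjusted p 0.0584 to 0.143) and in limma voom (0.0510), while the calls against both DMEM media held in every alternative.

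SLC25A36 had 62.0, 68.8 and 84.1 CPM in Plasmax, 29.4, 49.0 and 38.1 CPM in HGDMEM, 35.1, 51.3 and 64.3 CPM in LGDMEM and 43.7, 53.9 and 41.9 CPM in EMEM. Plasmax libraries were above those of HGDMEM and EMEM, while LGDMEM 3 overlapped them. SLC25A36 rose against HGDMEM (log2 fold change 0.88, SE 0.22, adjusted p = 0.00593 by edgeR) and against EMEM (0.62, SE 0.22, adjusted p = 0.0484), and had 0.51 against LGDMEM (adjusted p = 0.106). The call against EMEM was lost without any 1 of the 3 Plasmax libraries, EMEM 1 or EMEM 3 (adjusted p 0.0525 to 0.188), and a call against LGDMEM was made without LGDMEM 3 (0.0292) and with the replicate number as a block (log2 fold change 0.53, adjusted p = 0.0474). SLC25A36 made up 70.7% ± 4.28 of the reads of this pair in Plasmax, 37.8% ± 7.12 in HGDMEM, 43.5% ± 11.4 in LGDMEM and 51.5% ± 7.43 in EMEM (SD, n = 3 each). It was the more abundant of the pair in every Plasmax library, and also in LGDMEM 3 (54.3%), EMEM 1 (50.6%) and EMEM 2 (59.3%). The pair was set side by side after its values were seen.

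**Figure D4:**
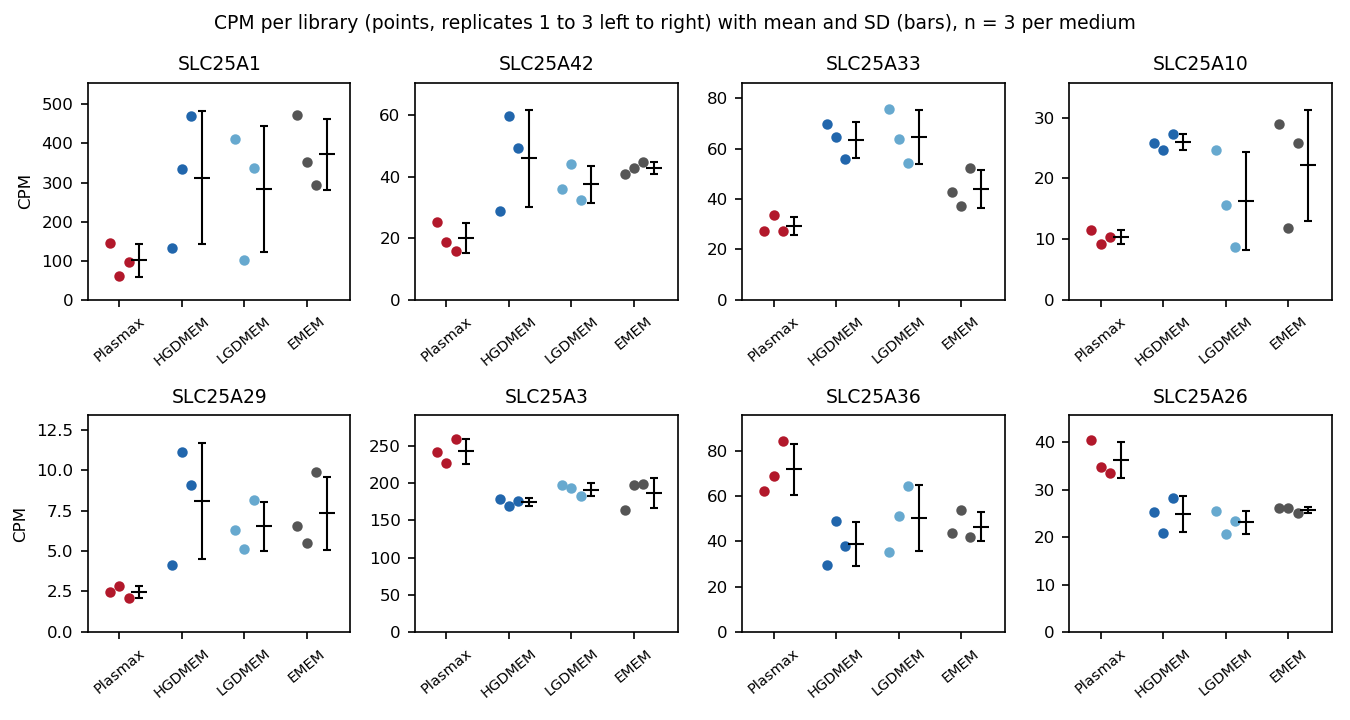
CPM of 8 carriers in each of the 12 libraries (points), by medium, with mean and SD (bars, n = 3). SLC25A42, SLC25A33 and SLC25A29 have all Plasmax points below the other 9, SLC25A3 and SLC25A26 have them above, and SLC25A1 shows 1 low HGDMEM and 1 low LGDMEM library.

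Among the other carriers of cofactors, SLC25A26, which brings S-adenosylmethionine to the matrix for methylation, had 40.6, 34.9 and 33.5 CPM in Plasmax, 25.3, 20.9 and 28.3 CPM in HGDMEM, 25.5, 20.6 and 23.3 CPM in LGDMEM and 26.2, 26.2 and 25.0 CPM in EMEM. All 3 Plasmax libraries were above the other 9. It rose against LGDMEM (log2 fold change 0.65, SE 0.19, adjusted p = 0.0183 by edgeR) and HGDMEM (0.55, SE 0.19, adjusted p = 0.0342), and against EMEM it had 0.49 (adjusted p = 0.0652), not called. The call against LGDMEM was lost without Plasmax 1 or LGDMEM 2 (adjusted p 0.0735 and 0.0749) and that against HGDMEM without Plasmax 1, Plasmax 2, HGDMEM 1 or HGDMEM 2 (0.0587 to 0.146).

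SLC25A39, a mitochondrial glutathione carrier, fell against EMEM by a log2 fold change of −0.46 (SE 0.13, adjusted p = 0.0191 by edgeR), with 117 to 136 CPM in Plasmax and 151 to 193 CPM in EMEM. The call was lost without Plasmax 1, Plasmax 3, EMEM 2 or EMEM 3 (adjusted p 0.0502 to 0.0931). Its values were −0.22 against LGDMEM and −0.23 against HGDMEM, not called, and its relative SLC25A40 was called in none of these comparisons, at 0.10 against EMEM and −0.25 against both others. SLC25A20, the carnitine-acylcarnitine carrier of fatty acid oxidation, had 8.44, 7.77 and 6.61 CPM in Plasmax, 10.7, 8.28 and 10.2 CPM in HGDMEM, 8.58, 7.27 and 5.89 CPM in LGDMEM and 9.95, 4.45 and 8.20 CPM in EMEM. Its libraries overlapped between media, with a log2 fold change of 0.03 against EMEM (SE 0.36, adjusted p = 0.970). SLC25A51, which imports NAD, had 0.72 against EMEM (adjusted p = 0.110) with no overlap, and −0.27 against LGDMEM. A rise against EMEM with no overlap held for 2102 of 10945 genes. SLC25A32, the folate and flavin carrier, ranged from 31.2 to 51.2 CPM over the 12 libraries, and SLC25A17, a peroxisomal carrier, from 11.6 to 26.1 CPM, neither called in any comparison.

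Of the ADP/ATP and phosphate carriers, SLC25A3, which brings in phosphate for ATP synthesis and also carries copper, rose in Plasmax. It had 242, 227 and 260 CPM in Plasmax, 179, 169 and 176 CPM in HGDMEM, 198, 194 and 182 CPM in LGDMEM and 164, 198 and 199 CPM in EMEM. The 3 Plasmax libraries lay above the other 9. The rise was 39.0% against HGDMEM (log2 fold change 0.48, SE 0.12, adjusted p = 0.00556 by edgeR), 29.9% against EMEM (0.38, SE 0.12, adjusted p = 0.0268) and 26.9% against LGDMEM (0.34, SE 0.12, adjusted p = 0.0440). The HGDMEM call held without any 1 library. The EMEM call was lost without Plasmax 1, Plasmax 3 or EMEM 1 (adjusted p 0.0605 to 0.134), and the LGDMEM call without any 1 of its 6 libraries (0.0533 to 0.146) and with the compared media alone in the fit (0.0883).

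The ADP/ATP carriers, which exchange matrix ATP for cytosolic ADP, are encoded by closely related genes with processed pseudogenes. How the authors' counting treated reads that match more than 1 of these is not stated, so their levels are uncertain. SLC25A6, the most abundant carrier here, had 899, 874 and 876 CPM in Plasmax, 650, 666 and 727 CPM in HGDMEM, 729, 791 and 1112 CPM in LGDMEM and 683, 747 and 803 CPM in EMEM. LGDMEM 3 exceeded every other library, and Plasmax lay above HGDMEM and EMEM. SLC25A6 rose against HGDMEM (log2 fold change 0.38, SE 0.13, adjusted p = 0.0451 by edgeR), a call lost without any 1 of the 6 libraries (0.0611 to 0.133), and had 0.25 against EMEM (adjusted p = 0.205) and 0.01 against LGDMEM. SLC25A5 had 312, 346 and 337 CPM in Plasmax, 379, 412 and 425 CPM in HGDMEM, 346, 380 and 405 CPM in LGDMEM and 348, 404 and 386 CPM in EMEM. Plasmax lay below HGDMEM and EMEM without overlap, which held for 2323 and 2207 of 10945 genes. For SLC25A5 edgeR called none of the comparisons, with log2 fold changes of −0.29 (adjusted p = 0.0624), −0.18 (0.264) and −0.19 (0.232) against HGDMEM, LGDMEM and EMEM. Against HGDMEM it was called in DESeq2 (adjusted p = 0.0378), in limma voom (0.0400), with the replicate number as a block (0.0395), with library-size scaling (0.0442) and with the compared media alone (0.0417). SLC25A4 had −0.24, −0.01 and −0.12 against the same media and was not called.

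Shares within such groups of related carriers are independent of library scaling. SLC25A6 took 69.0% ± 0.690 of the ADP/ATP carrier reads in Plasmax, 58.5% ± 0.950 in HGDMEM, 66.1% ± 3.73 in LGDMEM and 62.3% ± 1.15 in EMEM, and SLC25A5 took 25.9% ± 1.51 in Plasmax, 34.8% ± 0.678 in HGDMEM, 28.9% ± 2.81 in LGDMEM and 31.8% ± 1.24 in EMEM (SD, n = 3 each). Plasmax did not overlap HGDMEM or EMEM in either share. It overlapped LGDMEM in both through LGDMEM 3, with 70.3% for SLC25A6 and 25.6% for SLC25A5. With 3 libraries a medium the smallest two-sided p of an exact permutation test is 0.1, so these shares were not tested.

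**Figure D5:**
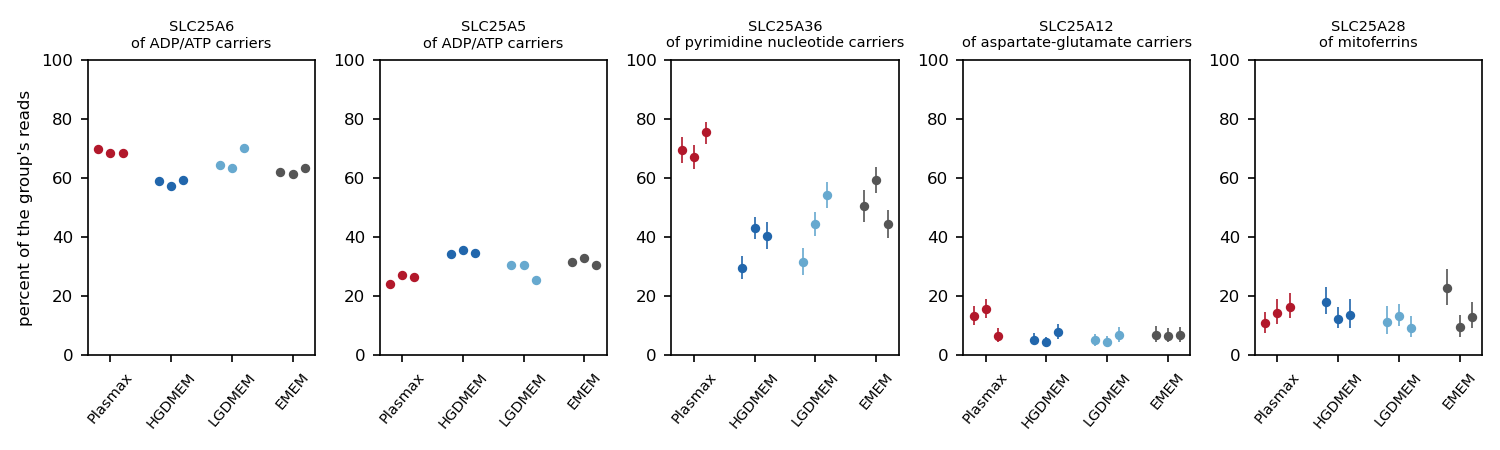
Share of a group's reads taken by 1 related carrier, in percent, in each of the 12 libraries (points, with 95% Clopper-Pearson intervals that cover counting error only). Plasmax libraries are highest for SLC25A36 among the pyrimidine nucleotide carriers, and for SLC25A6 only LGDMEM 3 lies above them.

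The calcium-regulated ATP-Mg/phosphate carriers, which adjust the adenine nucleotide content of the matrix, had 3 members measured. SLC25A23 had 53.1, 46.6 and 42.6 CPM in Plasmax, 77.8, 68.5 and 73.6 CPM in HGDMEM, 60.8, 56.2 and 52.3 CPM in LGDMEM and 68.7, 61.2 and 67.9 CPM in EMEM. LGDMEM lay between Plasmax and the other media, overlapping Plasmax. SLC25A23 fell against HGDMEM (log2 fold change −0.63, SE 0.14, adjusted p = 0.00336 by edgeR) and EMEM (−0.47, SE 0.14, adjusted p = 0.0245), and had −0.25 against LGDMEM (adjusted p = 0.242). The EMEM call was lost without Plasmax 2, Plasmax 3, EMEM 1 or EMEM 3 (adjusted p 0.0689 to 0.0961). SLC25A25 was called against LGDMEM (−0.77, adjusted p = 0.0475) with overlapping groups, a call lost without any 1 of the 3 Plasmax libraries, LGDMEM 1 or LGDMEM 2 (0.0501 to 0.159), with upper-quartile (0.0562) or library-size scaling (0.0543), with the replicate number as a block (0.0521), with the compared media alone (0.0536) and in limma voom (0.0701). Against HGDMEM it had −0.72 (adjusted p = 0.0526), called with library-size scaling (0.0483), in DESeq2 (0.0389) and with the compared media alone (0.0162). SLC25A24 was called in none of the comparisons, at 7.12 to 15.4 CPM over the 12 libraries.

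Among the amino acid carriers, 1 of 7 measured members, or 14.3%, was called in each comparison with Plasmax. Of all genes, 22.1% were called against EMEM, 21.2% against LGDMEM and 26.9% against HGDMEM. The called member was SLC25A29, which carries basic amino acids such as arginine and lysine. It had 2.47, 2.84 and 2.07 CPM in Plasmax, 4.13, 11.1 and 9.09 CPM in HGDMEM, 6.31, 5.11 and 8.15 CPM in LGDMEM and 6.55, 5.52 and 9.89 CPM in EMEM. All Plasmax libraries were below the other 9, and their values rested on few reads, 12, 15 and 10 counts. The log2 fold changes were −1.71 against HGDMEM (SE 0.46, adjusted p = 0.00930 by edgeR), −1.39 against LGDMEM (SE 0.46, adjusted p = 0.0386) and −1.56 against EMEM (SE 0.46, adjusted p = 0.0205). The HGDMEM call was lost without HGDMEM 2 (adjusted p = 0.0537), the LGDMEM call without any 1 Plasmax library, LGDMEM 1 or LGDMEM 3 (0.0675 to 0.112), and the EMEM call without Plasmax 1, Plasmax 3 or EMEM 3 (0.0519 to 0.0969). In limma voom the calls against LGDMEM and EMEM were lost (0.119 and 0.0710), as was that against LGDMEM with the compared media alone (0.0726).

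The aspartate-glutamate carriers of the malate-aspartate shuttle were not called. SLC25A13, also named citrin and the main form in liver, had 85.3, 81.3 and 84.1 CPM in Plasmax, 90.8, 104 and 94.5 CPM in HGDMEM, 124, 102 and 92.6 CPM in LGDMEM and 89.3, 85.3 and 75.9 CPM in EMEM. Plasmax overlapped EMEM and lay below both DMEM media, with log2 fold changes of 0.00 against EMEM (adjusted p = 0.996), −0.34 against LGDMEM (0.0832) and −0.21 against HGDMEM (0.294). Without LGDMEM 3 the second was called (0.0353). SLC25A12, the form of muscle and brain, had 13.0, 15.2 and 5.99 CPM in Plasmax and 6.55, 6.05 and 5.47 CPM in EMEM, so 2 of 3 Plasmax libraries were high and the third was not (log2 fold change 0.92, adjusted p = 0.102). Its share of the reads of this pair was 11.9% ± 4.68 in Plasmax and 6.73% ± 0.104 in EMEM (SD, n = 3 each). The ornithine carrier SLC25A15 of the urea cycle had −0.24 against EMEM, −0.55 against LGDMEM and −0.78 against HGDMEM, the glutamate carrier SLC25A22 had 0.15, −0.03 and 0.03, the glycine carrier SLC25A38 of haem synthesis had 0.08, 0.04 and −0.06, and the branched-chain amino acid carrier SLC25A44 had −0.16, −0.21 and −0.40 against the same media, none called.

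Neither mitoferrin was called in any comparison, in a series whose title concerns iron availability. Of all genes, 22.1%, 21.2% and 26.9% were called in Plasmax against EMEM, LGDMEM and HGDMEM. A count of 0 of 2 carriers cannot be told apart from these shares. Mitoferrins bring iron into the matrix for haem and iron-sulphur cluster synthesis. SLC25A37, mitoferrin-1, had 59.5, 46.4 and 56.4 CPM in Plasmax, 45.6, 51.5 and 37.6 CPM in HGDMEM, 41.9, 62.5 and 55.7 CPM in LGDMEM and 36.9, 40.9 and 43.1 CPM in EMEM. Plasmax lay above EMEM without overlap and overlapped both DMEM media, with log2 fold changes of 0.42 against EMEM (SE 0.18, adjusted p = 0.106 by edgeR), 0.02 against LGDMEM (0.961) and 0.27 against HGDMEM (0.301). Of all 10945 genes, 2102 likewise lay above EMEM without overlap. SLC25A28, mitoferrin-2, had 7.21, 7.77 and 11.2 CPM in Plasmax, 10.1, 7.28 and 5.92 CPM in HGDMEM, 5.30, 9.63 and 5.66 CPM in LGDMEM and 10.9, 4.27 and 6.52 CPM in EMEM. Its media overlapped, with a log2 fold change of 0.28 against EMEM (SE 0.40, adjusted p = 0.677). SLC25A28 made up 13.9% ± 2.88 of the mitoferrin reads in Plasmax, 14.7% ± 3.05 in HGDMEM, 11.3% ± 2.06 in LGDMEM and 15.1% ± 6.92 in EMEM (SD, n = 3 each), so most reads came from SLC25A37 in all 4 media.

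None of the 7 measured uncoupling-protein-like and other members was called, beside 22.1%, 21.2% and 26.9% of all genes in Plasmax against EMEM, LGDMEM and HGDMEM. The log2 fold changes of the 7 members against EMEM ran from −0.96 (SLC25A45, adjusted p = 0.438) to 0.18 (SLC25A53, adjusted p = 0.886). Their SEs of 0.29 to 0.81 leave room for changes of the size seen in called carriers. SLC25A45 had 0 CPM in Plasmax 1 and 3.60 and 0.827 CPM in the other Plasmax libraries, against 9.75, 3.64 and 4.65 CPM in HGDMEM (log2 fold change −1.98, adjusted p = 0.0707). SLC25A46, which acts in mitochondrial fission on the outer membrane, ranged from 10.4 to 26.5 CPM, and SLC25A14, a relative of the uncoupling proteins, from 10.3 to 27.0 CPM over the 12 libraries.

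Both antisense rows were higher in Plasmax in at least 1 comparison. SLC25A21-AS1 had 37, 39 and 42 counts in Plasmax, 13, 5 and 17 in HGDMEM, 2, 8 and 17 in LGDMEM and 14, 9 and 10 in EMEM. It rose against LGDMEM (log2 fold change 1.98, SE 0.64, adjusted p = 0.0349 by edgeR) and HGDMEM (1.80, SE 0.63, adjusted p = 0.0407), and had 1.75 against EMEM (0.0545), a value called in DESeq2 (0.0220), in limma voom (0.0264) and with the compared media alone (0.0162). SLC25A25-AS1 had 7.62, 7.39 and 12.6 CPM in Plasmax against 0.757, 4.72 and 0.453 CPM in LGDMEM and 5.34, 1.78 and 0.841 CPM in EMEM, and rose against LGDMEM (log2 fold change 2.15, SE 0.72, adjusted p = 0.0383). Its log2 fold change was 1.15 against HGDMEM (0.222) and 1.82 against EMEM (0.0709), the second of which was called without EMEM 1 (0.0290), without both HGDMEM 1 and LGDMEM 2 (0.0455), in DESeq2 (0.0344), in limma voom (0.0224) and with the compared media alone (0.0254). The SLC25A25-AS1 call was lost without any 1 Plasmax library, LGDMEM 1 or LGDMEM 3 (adjusted p 0.0591 to 0.131), and those of SLC25A21-AS1 without any 1 Plasmax library, LGDMEM 1 or 2 (0.0690 to 0.124), or HGDMEM 1 or 2 (0.0778 to 0.148). Counting by strand is not stated, so reads of SLC25A21-AS1 and of SLC25A21, which it overlaps on the opposite strand, cannot be told apart from these counts alone.

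Genes that work with the carriers were read from lists by function. Of 18 other mitochondrial transporters, 5 fell and none rose against EMEM, or 27.8% called, where all genes had 10.0% higher and 12.1% lower. Both subunits of the mitochondrial pyruvate carrier were among them, MPC1 at 50.1 CPM in Plasmax and 78.9 CPM in EMEM (log2 fold change −0.66, adjusted p = 0.00235 by edgeR) and MPC2 at 29.1 CPM in Plasmax and 60.0 CPM in EMEM (−1.04, adjusted p = 0.00147). SFXN2, a sideroflexin of the inner membrane, fell by 2.86 on the log2 scale, the outer membrane channel VDAC3 fell by 0.86 and ABCB10 fell by 1.15. Against LGDMEM and HGDMEM 6 of the 18 fell and none rose, or 33.3% called, where all genes had 9.48% higher and 11.7% lower against LGDMEM and 12.8% higher and 14.1% lower against HGDMEM, with MPC1, MPC2, SFXN2 and VDAC3 called in all 3 comparisons. Of the 11 measured parts of the import route of carriers, TIMM10 rose against EMEM (log2 fold change 0.66), TOMM40 and AGK fell against LGDMEM (−0.49 and −0.91), and against HGDMEM TIMM9 rose (0.70) while TOMM40 and TOMM7 fell (−0.53 and −0.35). The shares of this list called were 9.09% against EMEM, 18.2% against LGDMEM and 27.3% against HGDMEM, beside 22.1%, 21.2% and 26.9% of all genes.

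Of 28 enzymes that make or use what the carriers move, 6 rose and 6 fell against EMEM, 3 rose and 8 fell against LGDMEM, and 4 rose and 7 fell against HGDMEM. These were 42.9%, 39.3% and 39.3% of the list, beside 22.1%, 21.2% and 26.9% of all genes called. ACLY, which splits exported citrate into acetyl-CoA, had 225 CPM in Plasmax and 397 CPM in EMEM (log2 fold change −0.82, adjusted p = 2.74e-04 by edgeR). The isocitrate dehydrogenases IDH1 of the cytosol and IDH2 of the matrix fell by 1.28 and 1.97 on the log2 scale. CPT1A, which makes the acylcarnitine that SLC25A20 carries, rose (160 CPM in Plasmax and 49.4 CPM in EMEM, log2 fold change 1.69, adjusted p = 3.77e-07), as did MTHFD1L of mitochondrial folate metabolism (1.23, adjusted p = 2.49e-04). Of 10 regulators of mitochondrial biogenesis PPARGC1A alone was called, or 10%, below the share of all genes, and it was higher in each comparison, with 33.6 CPM in Plasmax and 11.7 CPM in EMEM (log2 fold change 1.54, adjusted p = 4.08e-04).

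Of 28 respiratory chain and ATP synthase subunits encoded in the nucleus, 2 rose and 7 fell against EMEM, at a median of −0.15 on the log2 scale, 1 rose and 7 fell against LGDMEM, with a median of −0.17, and 1 rose and 10 fell against HGDMEM, with a median of −0.19. The list's called shares were 32.1%, 28.6% and 39.3%, beside 22.1%, 21.2% and 26.9% of all genes. UQCRFS1 of complex III had −0.67 (adjusted p = 0.00913 by edgeR) and COX6C of complex IV had 0.53 (adjusted p = 0.00549) against EMEM. Of the 13 mitochondrially encoded transcripts, which the table spells without a prefix, 3 rose and none fell against EMEM, 5 rose and 1 fell against LGDMEM, and 7 rose and 1 fell against HGDMEM, with medians of 0.28, 0.36 and 0.35. Called shares were 23.1%, 46.2% and 61.5%, beside the same shares of all genes. ND1 led them, at 6800 CPM in Plasmax and 4034 CPM in EMEM (log2 fold change 0.75, adjusted p = 7.46e-04). These transcripts took 13.5% ± 1.00 of the counts in Plasmax, 11.0% ± 0.843 in HGDMEM, 10.9% ± 1.25 in LGDMEM and 11.4% ± 1.11 in EMEM (SD, n = 3 each), and their part in the carrier values was not tested.

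The counts of called carriers moved with single libraries. Against EMEM, 3 carriers were called without Plasmax 3, 4 without Plasmax 1, EMEM 1 or EMEM 3, 6 without Plasmax 2 and 8 without EMEM 2. Against LGDMEM, 3 were called without any 1 Plasmax library, LGDMEM 1 or LGDMEM 2, and 9 without LGDMEM 3. Against HGDMEM, leaving out 1 library at a time gave 8 to 12. Of 31 calls of named members, 9 held in every alternative, those of SLC25A1 and SLC25A42 against EMEM, of SLC25A33 against LGDMEM, and of SLC25A42, SLC25A33, SLC25A3, SLC25A36, SLC25A23 and SLC25A10 against HGDMEM, and none changed sign.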

How the data were processed

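The data were 12 libraries of 3′ mRNA (QuantSeq) from HepG2 cells, 3 for each medium. The authors deposited 1 table of raw counts per gene, whole numbers with no normalization. The submitters' processing notes name the builds hg19 and GRCh37 and STAR 2.7.5b, featureCounts 1.6.3, cutadapt 1.16, limma 3.40.6 and FastQC 0.72, without their role. Rows that name no gene, 601 of 11546, held 2.92% to 3.71% of the counts and entered neither library sizes nor tests. Totals over the other 10945 rows were 3995365 to 5840057.

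The quasi-likelihood test of edgeR 4.0.16 (R 4.3.3) was run on the counts with TMM scaling, all 12 libraries and no block. P-values were adjusted by Benjamini-Hochberg over 10945 genes. SE is the size of the log2 fold change over the root of the F statistic. The filter of edgeR removed 0 genes. The script was tested on simulated data. Alternatives were other scalings, filters, DESeq2 1.42.0, limma voom 3.58.1, an adjusted p of 0.01, a block, fewer media and each library left out. Carriers called against EMEM with a mean level of 10 CPM or more and a log2 change of at least 0.5, and SLC25A1, SLC25A5, SLC25A13, SLC25A20, SLC25A28 and SLC25A37, are given in full. Other members given in full were chosen after their values were seen. Each list of working partners gives up to 3 called genes with the largest change against EMEM, and others named there were also chosen after their values were seen. The members and lists were chosen with earlier results of these data known. Libraries of the same number were checked for deviating together. No comparison had all correlations over 0.1 (range −0.0365 to 0.166). Replicate 1 exceeded 0.1 in the 3 comparisons without Plasmax (0.166, 0.128 and 0.112), so pairing is not excluded. The block was run as an alternative only. Depth limits low carriers, and intervals of shares cover counting error only. Of the members counted in the totals, 1 is not reported here by name or drawn by name. The mitochondrially encoded genes were matched by their names without a prefix.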

Additional observations from a re-analysis of the deposited data

How the results depend on the processing

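Of 31 calls of named members, 9 held in every alternative and 0 changed sign, and 9 of 32 uncalled values became called in at least 1. Called carriers moved by over 1.5 times against EMEM in limma voom (6) and at an adjusted p of 0.01 (2), against LGDMEM in limma voom (4), at 0.01 (1), with the compared media alone (4) and without HGDMEM 1 and LGDMEM 2 (4, chosen after seeing the data), and over the 4 media at 0.01 (2) and without those 2 libraries (4). At 0.01 the threshold alone differed. For the other moves the cause was not tested, since leaving out libraries changes both their number and which ones remain. With 1 library left out, called carriers ranged from 3 to 8 against EMEM, 3 to 9 against LGDMEM and 3 to 11 over the 4 media, and medians from −0.15 to −0.013 (Plasmax against EMEM), −0.20 to −0.11 (Plasmax against LGDMEM), −0.038 to 0.058 (LGDMEM against EMEM) and 0.027 to 0.15 (HGDMEM against LGDMEM). The median against LGDMEM was −0.15 with upper-quartile and −0.16 with library-size scaling, that of HGDMEM against LGDMEM was −0.017 without the 2 libraries, and the EMEM sum was 2655 CPM with library-size scaling. The fit with the replicate number as a block called 9 carriers against EMEM, 7 against LGDMEM and 12 against HGDMEM, and 0 in the comparisons without Plasmax. Among named members it added SLC25A5 against HGDMEM and SLC25A36 against LGDMEM, and lost SLC25A21 against EMEM and SLC25A25 against LGDMEM.

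Values that changed sign were uncalled and near 0. Without single libraries these were SLC25A13 (−0.063 to 0.052) and SLC25A20 (−0.25 to 0.27) against EMEM, SLC25A28 against HGDMEM (−0.056 to 0.39), and SLC25A37 (−0.13 to 0.14), SLC25A20 (−0.057 to 0.21), SLC25A21 (−0.50 to 0.26) and SLC25A6 (−0.11 to 0.21) against LGDMEM. Without HGDMEM 1 and LGDMEM 2 together, SLC25A13 had −0.0025 against EMEM, and SLC25A21 and SLC25A6 had 0.060 and −0.064 against LGDMEM. Carriers of a few CPM, such as SLC25A45 and SLC25A35, had SEs above 0.6, so their values set only wide limits.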
